A study of Homo sapiens with 16 samples.

Results

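Of 55219 regions carrying an H3K27ac peak in at least 2 of the 16 peak lists of the series, 3431 held a peak in both lists of TWEAK-treated control MDA-MB-231 cells and in neither list of TWEAK-treated Fn14 knockout (Fn14 KO) cells, and 1773 showed the reverse. These 5204 regions, termed control-only and KO-only, were obtained by merging all peaks that shared at least 1 bp. MDA-MB-231 is a triple-negative breast cancer (TNBC) cell line, and H3K27ac is the acetylation of histone H3 found at active enhancers and promoters. The control group carried intact Fn14, whereas the KO group had been edited with CRISPR in the Fn14 gene, TNFRSF12A, and both were starved for 8 h and then given 10 ng/ml TWEAK for 48 h, replenished after 24 h. Untreated control and untreated Fn14 KO cells of the same line served as the reference state, and each group held 2 lists, labelled as replicates. The knockout was identified by western blotting and sequencing of the edited site, and the primers for that sequencing are listed by the study as those for its CRISPR clones. The number of clones behind the KO lists is not given in the sources used here, so a difference between genotypes cannot be told apart from a difference between clones. The series also holds 8 lists labelled Hs578T, another TNBC line, in the same 4 conditions.

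Fn14 is a receptor of the tumour necrosis factor receptor superfamily, and its ligand TWEAK is the product of TNFSF12. Binding of the ligand recruits TRAF adaptors and activates the canonical and non-canonical arms of NF-κB as well as MAP kinases that feed AP-1. NF-κB dimers bind short κB sites in enhancers and promoters of cytokine, adhesion and survival genes, and acetylation at such elements is commonly read from H3K27ac.

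Region counts were read against the other lists first. Both TWEAK-treated control lists held more and stronger peaks than the KO lists, with 42392 and 43116 peaks against 41301 and 40983. The median fold enrichment over input was 5.89 and 5.88 in the control lists and 5.21 and 5.0 in the KO lists, and the median −log10 q was 10.5 and 10.8 against 7.08 and 5.79. The part of this lower enrichment in the results below was not tested, and read depth was not used here. Control-only regions made up 6.21% and KO-only regions 3.21% of all regions, while 31748 regions (57.5%) had a peak in all 4 lists. The remaining ways of dividing the same 4 lists into pairs gave 523 and 527 regions in all. Just outside the rule lay 2443 regions with a peak in both control lists and 1 KO list, and 1268 with a peak in both KO lists and 1 control list. The control TWEAK lists labelled Hs578T lay close to those of MDA-MB-231. They shared 81.0 to 82.6% of regions, more than the 76.7 to 77.7% shared between genotypes within MDA-MB-231. The Fn14 KO TWEAK lists of the 2 labels shared 75.3 to 77.6%. Of these, both MDA-MB-231 lists and neither Hs578T list held a peak at 1116 regions, and the reverse held at 4367. Only 84 regions had a peak in all 8 MDA-MB-231 lists and in no list labelled Hs578T, and 181 showed the reverse. No region with a peak in at least 2 lists lay within 2 kb of a start site of CDH2, which encodes N-cadherin. A peak held by a single list would not be counted here. The Hs578T lists are therefore named by their label throughout and are not taken as an independent line. Among marker genes, all 7 of the mesenchymal set (such as VIM and CD44) had a start-site peak in all 4 TWEAK lists, with a summed fold enrichment of 143.4 and 142.6 in control and 96.4 and 86.8 in KO lists, and all 3 leukocyte markers lacked one. Peaks were present in all 4 lists at 2 of 6 luminal, 2 of 4 epithelial and 2 of 3 endothelial markers, the last being PECAM1 and CDH5.

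The targeted gene kept its mark. The region over the TNFRSF12A start site (hg38, chr16:3019824-3024891, shared with CLDN6) had a fold enrichment of 35.9 and 38.2 in the control TWEAK lists and 18.0 and 16.2 in the KO TWEAK lists. Untreated cells gave 35.3 and 35.1 in control and 20.9 and 16.2 in KO lists. The peak was thus weaker in all 4 KO lists, with or without TWEAK. After quantile normalisation the log2 difference was −0.35 (SE 0.08, limma adjusted p = 0.00616) with TWEAK and −0.48 (SE 0.08, limma adjusted p = 0.0019) without. A histone peak is present whether or not a coding edit disrupts the protein, so it does not check the genotype labels.

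The sequences under 5 of the strongest regions illustrate windows with and without 2 motifs counted further on. The central 300 bp of the strongest peak are printed 5′ to 3′ on the plus strand of hg38, with matches to the AP-1 motif (TGANTCA) or the NF-κB κB consensus, on either strand, in capitals. SEMA4A and USP31 lie beside control-only regions with κB matches, CTSO beside a control-only region with an AP-1 match and no κB match, and C20orf85 beside a KO-only region with AP-1 matches alone. The windows of the INO80, MPZL1 and PRDM11 control-only regions and of the CDRT15 KO-only region (not printed) held neither motif, as did that of the KO-only region in KIF6.
SEMA4A, chr1:156165123-156165422, 2 κB matches: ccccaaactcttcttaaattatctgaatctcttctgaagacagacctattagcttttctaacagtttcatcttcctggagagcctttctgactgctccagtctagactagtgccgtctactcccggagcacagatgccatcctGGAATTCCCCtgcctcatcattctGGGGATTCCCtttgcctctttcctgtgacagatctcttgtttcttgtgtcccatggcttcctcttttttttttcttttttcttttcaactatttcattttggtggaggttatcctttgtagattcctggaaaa
USP31, chr16:23145729-23146028, 1 κB match: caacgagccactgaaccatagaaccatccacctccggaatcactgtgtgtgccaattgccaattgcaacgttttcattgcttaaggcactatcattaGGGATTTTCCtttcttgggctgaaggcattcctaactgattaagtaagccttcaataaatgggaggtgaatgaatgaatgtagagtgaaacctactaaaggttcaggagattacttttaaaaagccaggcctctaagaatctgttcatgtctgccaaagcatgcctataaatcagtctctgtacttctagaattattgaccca
CTSO, chr4:155973805-155974104, 1 AP-1 match: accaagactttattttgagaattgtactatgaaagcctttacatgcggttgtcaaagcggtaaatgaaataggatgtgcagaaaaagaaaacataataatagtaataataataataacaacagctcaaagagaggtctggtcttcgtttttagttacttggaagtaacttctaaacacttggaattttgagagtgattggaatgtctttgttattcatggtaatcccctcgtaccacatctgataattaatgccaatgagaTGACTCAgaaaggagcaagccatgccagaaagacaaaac
C20orf85, chr20:58102765-58103064, 2 AP-1 matches: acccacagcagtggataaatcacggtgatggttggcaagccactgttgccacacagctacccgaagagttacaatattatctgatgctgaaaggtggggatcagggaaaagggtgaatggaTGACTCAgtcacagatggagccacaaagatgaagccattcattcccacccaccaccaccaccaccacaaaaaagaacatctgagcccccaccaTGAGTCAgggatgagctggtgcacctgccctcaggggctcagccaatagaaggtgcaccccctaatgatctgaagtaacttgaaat
KIF6, chr6:39425688-39425987, no match to either motif: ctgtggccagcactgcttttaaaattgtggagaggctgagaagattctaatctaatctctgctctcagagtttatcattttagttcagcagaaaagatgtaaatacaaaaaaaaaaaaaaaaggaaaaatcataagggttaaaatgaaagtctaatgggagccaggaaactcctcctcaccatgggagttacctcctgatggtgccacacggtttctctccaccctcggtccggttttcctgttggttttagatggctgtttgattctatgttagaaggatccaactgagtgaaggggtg

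The strongest control-only regions were picked for high values in TWEAK-treated control cells, and the rule requires their absence from KO TWEAK lists. In the untreated lists of MDA-MB-231 they were weak or absent. The highest lay 43.3 kb from the start of INO80, which encodes a chromatin remodelling ATPase, at chr15:41159620-41163166, between genes. Its fold enrichment was 21.7 and 21.5 in the control TWEAK lists and 2.53 and 2.86 in the untreated KO lists, and neither the untreated control nor the KO TWEAK lists held a peak. The SEMA4A region, chr1:156164354-156165987, lies in the body of this gene for a membrane semaphorin. There the control TWEAK lists gave 15.4 and 15.6, the untreated KO lists 3.59 and 4.29, and the other MDA-MB-231 lists had no peak. The region 18.4 kb from CTSO, a cathepsin gene, at chr4:155972319-155975803, gave 15.4 and 16.8 in control TWEAK lists and 2.6 in 1 untreated KO list. At SUPT4H1, which encodes a transcription elongation factor, the region chr17:58343320-58346415 gave 16.2 and 14.6 with TWEAK in control cells and 3.14 and 2.92 in untreated KO cells. Before treatment the regions of INO80, SEMA4A and SUPT4H1 were listed in both KO and in no control list.

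Other strong control-only regions had no untreated peak at all in this line. The MPZL1 region, chr1:167773256-167776613, in the gene of a cell surface glycoprotein, gave 14.6 and 16.5. The USP31 region, chr16:23144900-23147547, 1.91 kb from the start of a ubiquitin peptidase gene, gave 15.7 and 14.3. FNBP1, encoding a membrane-curving actin regulator, gave 13.6 and 13.6 at chr9:130009553-130011968. All 3 were absent from the 4 untreated lists of MDA-MB-231 and, by the rule, from both KO TWEAK lists. PTPRM, a receptor phosphatase gene, gave 13.3 and 13.8 at chr18:8223590-8225732, inside the gene. BCL2A1, an anti-apoptotic BCL2 family gene and a known NF-κB target, gave 13.2 and 14.6 at chr15:79965162-79968596, over one of its exons. The region 42.6 kb from TRIO, a guanine exchange factor gene, at chr5:14096860-14100788, gave 14.5 and 13.7, with 2.74 in 1 untreated KO list. In the control TWEAK lists labelled Hs578T these 6 regions ranged from 7.74 to 14.3. BCL2A1 gave 3.53 in KO TWEAK replicate 1 with that label and the other 5 had no peak in either of these KO TWEAK lists.

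**Figure D1:**
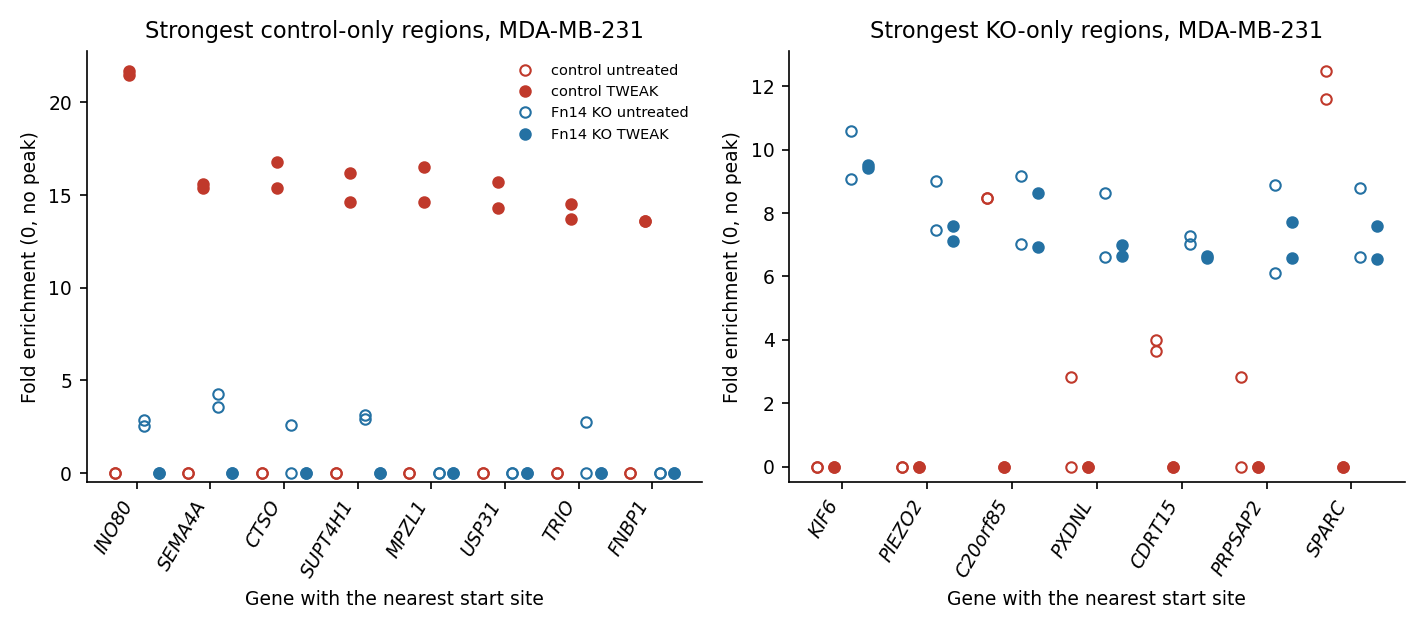
Fold enrichment over input (linear axis) of the 8 strongest control-only regions (left) and of the strongest KO-only regions with a gene name (right), 1 point per MDA-MB-231 list, 2 lists per group, with 0 where the list held no peak. The filled red points of TWEAK-treated control cells sit between 13.6 and 21.7 on the left, where KO TWEAK lists are at 0 by the rule. On the right, where control TWEAK lists are at 0 by the rule, SPARC, C20orf85 and CDRT15 have untreated control peaks.

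The untreated lists of the line divided the control-only regions. Of 3431, 1749 (51.0%) had no peak in any of the 4 untreated lists, and 1252 (36.5%) had some other pattern. Only 239 (6.97%) already differed the same way without TWEAK, while 121 (3.53%) had a peak in all 4 untreated lists and 70 (2.04%) differed the opposite way. Untreated control-only regions numbered 1147 in all (2.08% of regions), so the 239 made up 20.8% of them. The share of control-only regions with a peak was 20.3 and 33.7% in the untreated control lists and 30.7 and 10.5% in the untreated KO lists. These ranges overlap, so untreated cells of both genotypes lacked most of these peaks. Already differing regions were led by the one 1.85 kb from PRDM11, a gene of the PR domain family, at chr11:45091891-45093959. It gave 2.88 and 3.53 untreated and 8.63 and 8.25 with TWEAK in control cells, and no peak in any KO list of the line. At UST, a sulfotransferase gene (chr6:148863728-148864912), control cells gave 4.52 and 4.78 untreated and 8.05 and 8.07 with TWEAK. The region 93.1 kb from ADTRP (chr6:11641382-11642571) gave 2.83 and 3.48, then 8.02 and 8.22. RNF216, a ubiquitin ligase gene (chr7:5700461-5704367), gave 2.5 and 3.31, then 6.51 and 6.57. At all 4 the control peak was higher in both TWEAK lists than in both untreated lists. They were picked for high control TWEAK values, so the choice itself favoured this order.

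KO-only regions had the other history. Of 1773, 734 (41.4%) had a peak in all 4 untreated lists and 726 (40.9%) another pattern, 247 (13.9%) already differed the same way, 46 (2.59%) had no untreated peak and 20 (1.13%) differed the opposite way. The untreated control lists held a peak at 58.7 and 70.6% of them and the untreated KO lists at 93.1 and 69.7%. Over all regions these shares were 68.0 and 75.7% in untreated control and 77.5 and 65.8% in untreated KO lists. Each untreated control list thus held a peak at most KO-only regions, at a share below that of all regions. The absence of a control peak with TWEAK is set by the rule. The median of the lower fold enrichment was 3.19 (highest 9.43) for KO-only and 3.32 (highest 21.5) for control-only regions, read from lists whose median enrichment differed (5.21 and 5.0 in KO, 5.89 and 5.88 in control TWEAK lists), and 7.18 at regions with a peak in all 4 lists. Both counts depended on the peak threshold: with only peaks of a −log10 q of at least 5 kept, 419 regions were KO-only, while control-only regions rose from 3431 to 4345. The part in this of the lower −log10 q of the KO lists (median 7.08 and 5.79 against 10.5 and 10.8) was not tested. The number of untreated KO-only regions was 1182 (2.14%).

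Regions that TWEAK-treated control cells lacked and untreated control cells held included the one 6.33 kb from SPARC, which encodes a secreted matrix glycoprotein, at chr5:151693302-151695165. Its fold enrichment was 12.5 and 11.6 in untreated control, 8.79 and 6.62 in untreated KO and 7.6 and 6.55 in KO TWEAK lists, with no peak in either control TWEAK list. The lists labelled Hs578T gave 7.43 and 8.86 in untreated control and 7.45 and 8.38 in KO TWEAK cells and again no peak in control TWEAK cells. A KO-only region also covered the SPARC start site (chr5:151684481-151685754), at 3.75 and 4.19. The region 46.6 kb from C20orf85 (chr20:58101229-58104290) gave 8.47 and 8.49 in untreated control, 9.16 and 7.03 in untreated KO and 8.64 and 6.92 in KO TWEAK lists. The region 25.9 kb from CDRT15, inside COX10 (chr17:14208603-14210997), gave 3.66 and 4 in untreated control, 7.04 and 7.29 in untreated KO and 6.59 and 6.66 in KO TWEAK lists. In all 3 the 2 KO TWEAK values stayed near the untreated KO values.

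The 2 strongest KO-only regions already differed before TWEAK. At KIF6, a kinesin gene, chr6:39424913-39427240 gave 10.6 and 9.09 in untreated KO and 9.52 and 9.43 in KO TWEAK lists and had no control peak. PIEZO2, a mechanosensitive channel gene, gave 9.02 and 7.47 untreated and 7.6 and 7.11 with TWEAK at chr18:10924559-10929329, again in KO lists alone. RBFOX1, a splicing regulator gene, gave 9.34 and 7.87, then 8.15 and 6.29, at chr16:5904687-5907374. At these 3 regions the KO values with and without TWEAK overlapped and no control list held a peak. A second KIF6 region (chr6:39415972-39418080) likewise had no control peak and gave 8.11 and 6.35 in untreated KO and 6.88 and 5.59 in KO TWEAK lists. A region in MYO10 (chr5:16777495-16780102), the filopodial myosin, had no control peak either, but its KO values did not overlap, with 6.06 and 5.77 untreated and 5.71 and 5.44 with TWEAK. The PRPSAP2 region (chr17:18900536-18902840) gave 8.9 and 6.12 in untreated KO and 7.71 and 6.58 in KO TWEAK lists, with 2.83 in 1 untreated control list. PXDNL on chromosome 8 gave 6.98 and 6.66 and a region on an unplaced contig of chromosome 14 gave 7.18 and 7.04 in KO TWEAK lists. The 5 strongest KO-only regions with no untreated peak, near DEFB115, CLUAP1, SLC44A1, RLBP1 and VIPR2, reached at most 4.84, and none remained under the stricter peak threshold.

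Looked up in the lists labelled Hs578T, which the rule did not use, the control-only regions split by treatment and genotype. The share with a peak was 74.9 and 78.6% in control TWEAK lists, 25.4 and 27.7% in KO TWEAK lists, 37.1 and 28.5% in untreated control and 25.0 and 26.3% in untreated KO lists. TWEAK-treated control cells thus stood above the other 3 groups in both lists. Over all regions the shares were 74.9 and 78.9% in control TWEAK and 77.9 and 78.1% in KO TWEAK lists. They were 79.6 and 76.8% in untreated control and 77.4 and 77.4% in untreated KO lists. The control TWEAK shares of control-only regions thus lay near those of all regions, and the shares of the other 3 groups lay below them. The mean was 76.8% ± 2.62 (SD, n = 2) in control and 26.5% ± 1.63 (SD, n = 2) in KO TWEAK lists, a difference of −50.3 percentage points (exact permutation test, two-sided, p = 0.333, which is the smallest p that 2 lists against 2 allow; adjusted over 2 tests, 0.333). KO-only regions had a peak in 35.9 and 48.2% of cases in control TWEAK lists and in 77.3 and 77.4% in KO TWEAK lists. Untreated lists gave 77.2 and 74.1% in control and 76.7 and 77.2% in KO cells. The untreated and KO TWEAK shares of KO-only regions lay near those of all regions. Here the control TWEAK lists stood below the other 3 groups, with means of 42.0% ± 8.73 (SD, n = 2) and 77.4% ± 0.12 (SD, n = 2) and a difference of 35.3 percentage points (exact permutation test, two-sided, p = 0.333; adjusted over 2 tests, 0.333).

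The untreated state of MDA-MB-231 divided these shares further. Of the control-only regions with no untreated peak, 76.5 and 78.3% had a peak in the control TWEAK lists labelled Hs578T, and 7.49 and 8.40% in the KO TWEAK lists. Where the genotypes already differed untreated, the shares were 56.1 and 63.6% against 54.0 and 56.1%, so the ranges met there. KO-only regions with a peak in all 4 untreated lists gave 38.8 and 52.6% in control TWEAK and 89.5 and 90.2% in KO TWEAK lists. The control-only rule applied to the Hs578T lists called 3825 regions (6.93%), of which 1501 were shared, 43.7% of the MDA-MB-231 and 39.2% of the Hs578T set. For KO-only regions, 3619 (6.55%) were called and 474 shared, 26.7% and 13.1% of the sets. Among control-only regions the shared fraction was 61.2% of those with no untreated peak and 10.0% of those already differing.

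**Figure D2:**
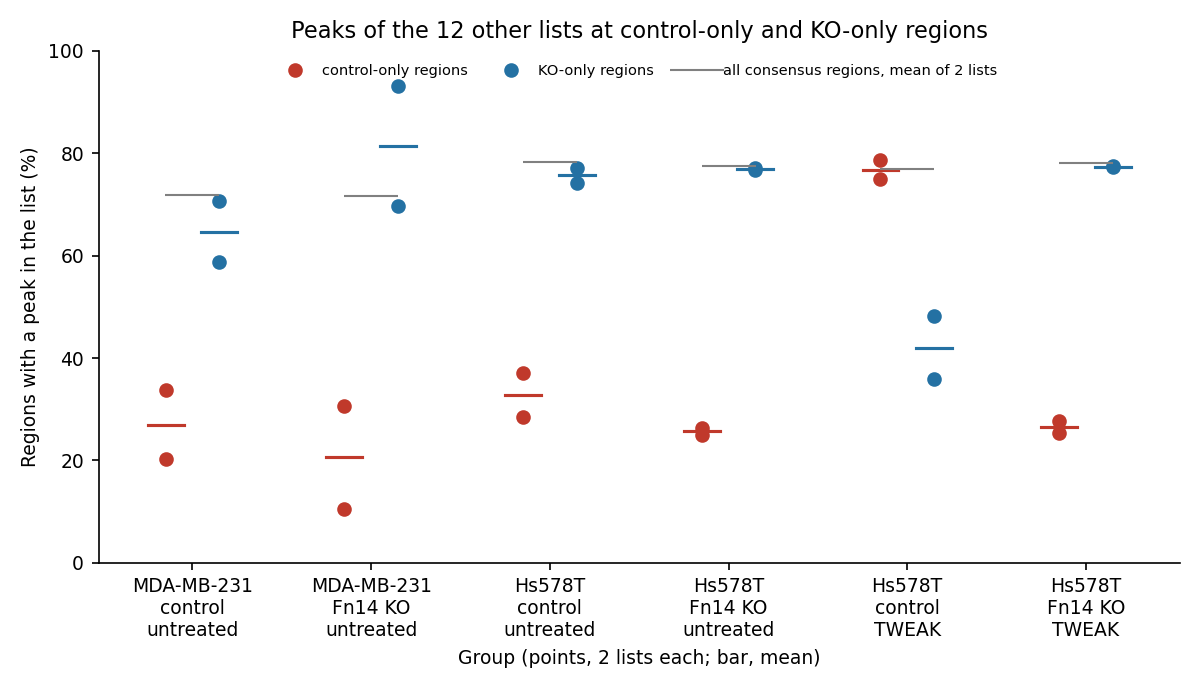
Share of control-only (red) and KO-only (blue) regions with a peak, in percent, in each of the 12 lists that the rule did not use, by group, with bars for the mean of 2 lists and grey lines for all consensus regions. Red points reach 74.9 and 78.6% in the control TWEAK lists labelled Hs578T and stay at or below 37.1% in every other list, and blue points fall to 35.9 and 48.2% in the same lists.

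The share of regions with the κB consensus differed between the classes, and that with the AP-1 motif differed little. In windows of 300 bp at the strongest TWEAK peak, the κB consensus was found in 6.07% of the 46536 regions with any MDA-MB-231 TWEAK peak, in 15.1% of control-only and in 2.14% of KO-only regions (38 of 1772). Within control-only regions it stood in 21.7% of those with no untreated peak (380 of 1749, 95% Wilson interval 19.9 to 23.7), in 8.47% of those with other patterns and in 5.02% of those already differing (12 of 239, 2.90 to 8.57). The share thus followed the untreated state. AP-1 matches were found in 26.2% of all regions, 29.3% of control-only (95% Wilson interval 27.8 to 30.8) and 29.4% of KO-only regions (27.3 to 31.6). Away from start sites, where all regions had 32.8%, the AP-1 shares were 30.1 and 30.7%, and the κB shares were 15.3 and 2.18% beside 5.52% of all. A RUNX motif (TGTGGTT) was found in 8.05% of all, 7.93% of control-only and 12.9% of KO-only regions (95% Wilson interval 11.4 to 14.6), and in 15.4% of KO-only regions with a peak in all 4 untreated lists. Away from start sites the RUNX shares were 7.92 and 13.3%, beside 9.68% of all regions. The small MAF motif, which contains the AP-1 motif and extends it at the 5′ end, stood in 1.81, 1.95 and 2.37%, and the TEAD motif (GGAATG) in 19.1, 21.3 and 21.4% of all, control-only and KO-only regions. A CEBP motif (TTGCNNAA) stood in 13.5, 15.7 and 13.1%. Promoter motifs were rarer in both kinds, with the ETS motif (CCGGAAG) at 4.02, 1.17 and 1.81% and the GC box (GGGCGG) at 19.8, 6.15 and 10.2%. Away from start sites the KO-only shares lay near those of all regions. There the ETS motif stood in 1.76, 1.17 and 1.56% and the GC box in 8.17, 5.13 and 7.85%, in the same order. The TEAD shares there were 21.4, 21.2 and 21.7%. Base composition moved with the class: mean GC content was 49.4% over all, 43.6% in control-only and 47.6% in KO-only windows, and its part in these shares was not tested. Regions that were also control-only under the Hs578T label held the κB consensus in 21.5% of cases and the others in 10.1%.

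**Figure D3:**
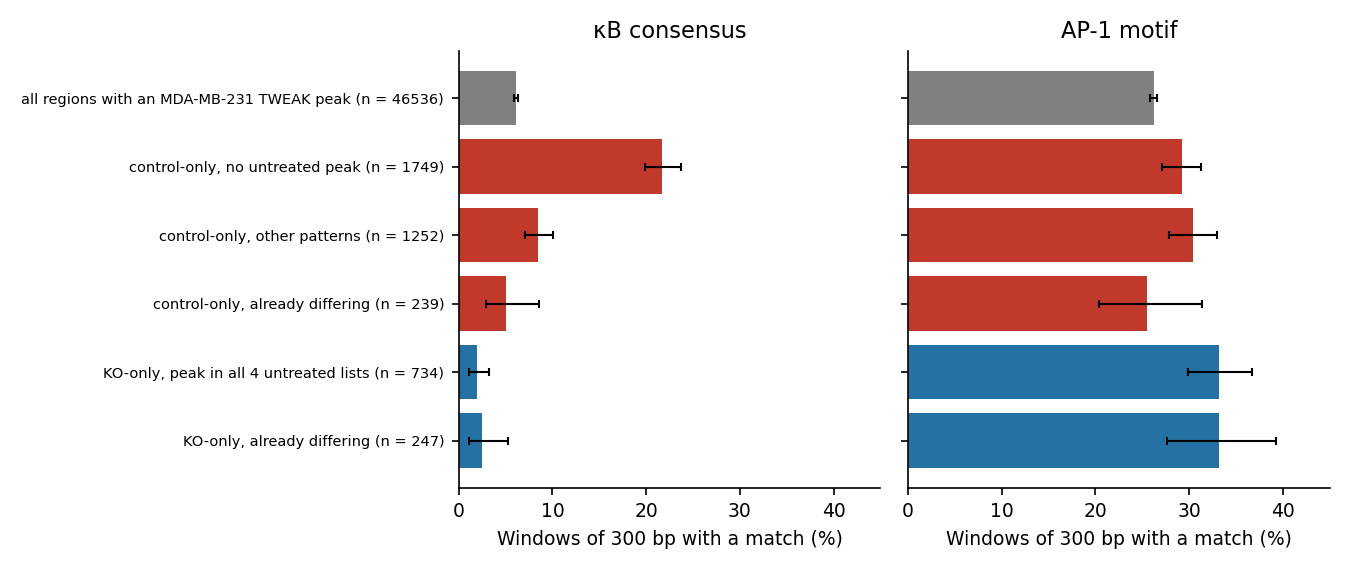
Share of 300 bp windows with a match to the κB consensus (left) or the AP-1 motif (right), in percent from 0, for all regions with an MDA-MB-231 TWEAK peak (grey), control-only classes (red) and KO-only classes (blue), with 95% Wilson intervals as error bars. The κB share is 21.7% where control-only regions had no untreated peak and 1.91% where KO-only regions had a peak in all 4 untreated lists, whereas AP-1 shares lie between 25.5 and 33.2% in these classes.

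Both kinds of region lay mostly away from promoters. Within 2 kb of a protein-coding start site lay 7.99% of control-only (95% Wilson interval 7.13 to 8.94) and 9.36% of KO-only regions (8.09 to 10.8), against 25.1% of all regions and 36.1% of those with a peak in all 4 lists. Gene bodies held 50.2 and 42.6%, and the median distance to a start site was 29.4 and 34.2 kb. The regions were narrow, with a median width of 1102 and 1343 bp, against 1702 bp over all regions.

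Genes of the TWEAK/Fn14 pathway were read within 50 kb of their start sites. Over all 17099 protein-coding genes with any region in reach, 19.6% had a control-only and 9.42% a KO-only region, and every count below stands beside these values. The lists and their members were chosen with earlier results of these data known. Their counts here and at start sites further on are therefore description and test nothing. The listed genes had more regions in reach than the median of 4 over all genes, with list medians of 5 to 9 except for 3 in NAD metabolism, and the part of this in the counts was not tested. Of the receptor and its proximal signalling genes, 6 of 15 had a control-only region and 1 a KO-only region. TRAF2, a receptor adaptor gene, had one at 3.39 and 2.69 (chr9:136934310-136935119). BIRC2 and BIRC3, which encode the cIAP ubiquitin ligases, shared one at 2.87 and 3.21 (chr11:102333159-102335633). Neither had an untreated peak. Of the NF-κB subunits and inhibitors, 6 of 15 had a control-only and 0 a KO-only region. NFKB1, the p50 subunit gene, had one in its body at 6.35 and 7.89 (chr4:102552024-102553791), with no untreated peak in either genotype. TNFAIP3, which encodes the inhibitor A20, had 2 at 4.46 and 3.52 and at 3.44 and 2.68, again with no untreated peak. NFKBIZ, the gene of an atypical IκB protein, had one at 5.02 and 6.11 (chr3:101890240-101891304) with a peak in 1 untreated control list. The region near NFKBIA, the IκBα gene, at 3.28 and 3.06, already differed untreated. TNIP1, an A20 partner gene, had 2, of which the stronger gave 4.72 and 4.79 (chr5:151067526-151070822).

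Cytokine and chemokine genes had control-only regions in 13 of 23 cases and KO-only regions in 2 of 23. Neighbouring genes were counted on the same regions: those of CXCL6 were also in reach of CXCL1, and CXCL10 and CXCL11 had the same ones. These genes and CXCL2, CXCL3 and CXCL8 lie on chromosome 4, where 10.1% of regions were control-only, against 6.21% over all regions. The genes are thus not separate cases. A region 27.4 kb from CXCL2, a neutrophil chemokine gene, gave 8.18 and 7.7 (chr4:74070436-74071772), and was also the only one in reach of CXCL3. The start site of CXCL11, a T cell chemokine gene, gave 5.03 and 5.1 (chr4:76035476-76036885), and that of CCL5 gave 4.23 and 5.64 (chr17:35879729-35881083). None of these had an untreated peak in MDA-MB-231. The start site of IL32 gave 7.59 and 7.6 (chr16:3064754-3066191), with a peak in 1 untreated KO list, and this region was also the one in reach of TNFRSF12A. CXCL8, the interleukin 8 gene, had one at 4.12 and 3.52 and CSF2, the GM-CSF gene, one at 3.74 and 3, both without an untreated peak. IL1B had a control-only region 2.21 kb from its start at 3.37 and 4.86 and a KO-only region 31.8 kb away at 3.46 and 4.1.

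Matrix proteases and their inhibitors had control-only regions in 10 of 20 cases and a KO-only region in 1. The start-site region of MMP9, a gelatinase gene, gave 4.6 and 6.08 (chr20:46007691-46008684) and had no untreated peak in either genotype. MMP2, the other gelatinase gene, had the KO-only region, at 3.97 and 3.1, with a peak in all 4 untreated lists. Among adhesion genes 5 of 19 had a control-only and 2 a KO-only region. ICAM1, which encodes a leukocyte adhesion receptor and is a classical NF-κB target, had 2, the one with no untreated peak at 4.46 and 4.76 (chr19:10265109-10266080). CD44 had one 2.74 kb from its start at 3.47 and 4.94, and VCAM1 one at 2.8 and 3.06. CDH11, a mesenchymal cadherin gene, had a KO-only region over its start site at 3.54 and 3.29 (chr16:65122178-65123610), which already differed untreated.

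The other lists spread on both sides of the background. None of 15 AP-1 and small MAF factor genes had a control-only or a KO-only region. In the JNK pathway 4 of 14 had a control-only and 0 a KO-only region, with DUSP16, a JNK phosphatase gene, at 5.72 and 7.05 (chr12:12538221-12540365). YAP and TEAD targets gave 8 of 16 and 2 of 16, led by NUAK2, a kinase gene, at 11.9 and 10.5 only 2.5 kb from its start (chr1:205324244-205325650). Filopodia and actin genes gave 9 of 16 and 5 of 16, and 4 of these genes had both kinds. MYO10 had a control-only region at its start site, at 3.5 and 4.45, beside the KO-only region described above. Epithelial-mesenchymal transition genes were the list with more KO-only than control-only genes, 4 of 17 against 2 of 17, and the KO-only ones were SPARC, SNAI2, TWIST1 and TGFB2. The regions of SPARC, SNAI2 and TWIST1 had a peak in all 4 untreated lists. NAD metabolism genes gave 4 of 17 and 1 of 17, with BST1, which encodes an NAD-cleaving surface enzyme, at 6.37 and 6.79 1.0 kb from its start site (chr4:15716333-15718096).

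Most of the regions stood alone. Joining control-only regions within 20 kb gave 3162 groups, of which 2931 were single regions, and 28 groups of at least 3 held 88 regions (2.56%). KO-only regions formed 1661 groups, of which 1579 were single regions and 7 of at least 3 held 22 regions (1.24%). The largest held 5 regions upstream of TNFAIP3 (chr6:137680701-137729615), where 5 of the 5 regions in the span were control-only and 4 of them had no untreated peak. The strongest of the 5 gave 6.23 and 4.96. A group of 4 covered ATG14, an autophagy gene, and FBXO34 (chr14:55365747-55389446), and another 4 lay over TLR1 and TLR6, which encode pattern recognition receptors of the NF-κB pathway (chr4:38787842-38838360). Each of these last 2 groups held 3 regions with no untreated peak. Further groups of 3 lay near YPEL2 and in SSBP3. The KO-only groups were led by 4 regions near BMP7, a growth factor gene (chr20:57046905-57077523), of which 3 already differed untreated. Groups of 3 lay in RBFOX1 and near NAA30, VWA5B1 and ICE1, and of these only the NAA30 group had a peak in all 4 untreated lists at each region.

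The presence of a peak says nothing of regions called in every list, so fold enrichment was compared at the 29889 regions with a peak in all 8 MDA-MB-231 lists. With limma on quantile-normalised log2 values, 3706 regions (12.4%) were lower and 3656 (12.2%) higher in KO than in control TWEAK cells at an adjusted p under 0.05. The split depends on scaling, since the KO lists were weaker throughout: without normalisation 13569 were lower and 944 higher and the median of all regions moved from 0.02 to −0.35, and with each list centred on its median 6190 were lower and 5498 higher. As deposited, both KO values lay below both control values at 3706 of the 3706 lower regions, beside 67.0% of all tested regions. Both lay above at 1847 (50.5%) of the 3656 higher regions, beside 10.1% of all tested regions, and below at 794. The higher calls are thus differences relative to the other regions of a list. Without control TWEAK replicate 2 the counts fell to 1742 and 1565, and without replicate 1 to 1948 and 1756. In the untreated comparison 2399 (8.03%) were lower and 2584 (8.65%) higher. Of the lower regions 499 were also lower untreated (13.5% of the TWEAK and 20.8% of the untreated calls), and of the higher ones 637 (17.4 and 24.7%). Opposite untreated calls numbered 388 and 187. Tested directly, the genotype difference was more negative with TWEAK than without at 2780 regions (9.30%) and more positive at 2353 (7.87%), among them 1891 of the lower and 1364 of the higher regions. The median log2 difference of the lower regions was −0.55 with TWEAK and −0.02 without, and that of the higher ones 0.50 and 0.09. Lower regions held the κB consensus in 9.26%, higher regions in 3.75% and all tested regions in 5.53% of cases. In the lists labelled Hs578T, both KO TWEAK values lay below both control values at 77.3% of the lower regions that could be read there, against 32.6% of all regions, and above at 69.9% of the higher ones, against 35.8%.

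**Figure D4:**
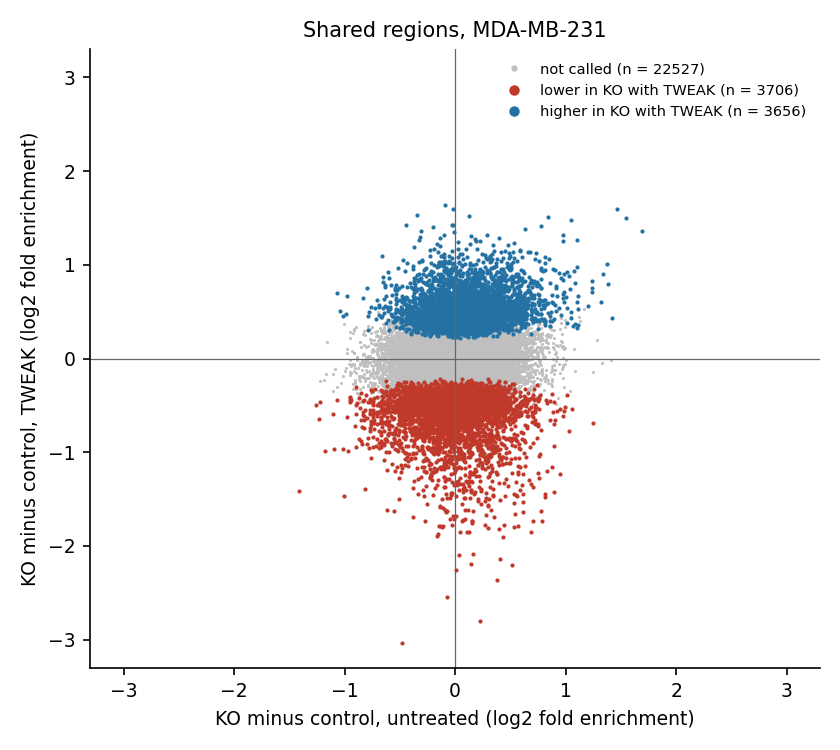
Log2 difference in fold enrichment between Fn14 KO and control at the 29889 shared regions, untreated on the horizontal and with TWEAK on the vertical axis, after quantile normalisation. The 3706 regions lower with TWEAK (red) reach −3.04 on the vertical axis, and the 3656 higher regions (blue) reach 1.64.

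The largest decreases were strong TWEAK peaks of control cells at sites where all other groups stayed low. Within GPR107, which encodes a membrane protein of the secretory route, the region chr9:130070616-130074864 gave 50.6 and 47.7 in control TWEAK lists, 5.35 and 7.31 in untreated control, 4.83 and 3.64 in untreated KO and 4.58 and 3.83 in KO TWEAK lists. The KO minus control log2 difference was −3.04 (SE 0.14, limma adjusted p = 3.83e-08) with TWEAK and −0.48 without, and these differed by −2.56 (SE 0.19, limma adjusted p = 3.95e-06). The region lies 16.7 kb from the gene's start and near the FNBP1 region described above. At the region 5.67 kb from SELPLG, the P-selectin ligand gene (chr12:108615902-108618657), control TWEAK lists gave 52.9 and 52.8 and KO TWEAK lists 5.97 and 4.31, and untreated lists lay between 4.27 and 5.09. The log2 difference was −2.80 (SE 0.15, limma adjusted p = 1.85e-07). ZC3H7B, a zinc finger gene (chr22:41293581-41297207), gave 28.4 and 27.3 against 3.23 and 3.98, a log2 difference of −2.54. ARNT2, a bHLH-PAS factor gene (chr15:80418711-80421339), gave 26.5 and 27.2 against 3.99 and 3.79, a log2 difference of −2.36. The region near LAPTM4A (chr2:20090594-20093199) gave 26.7 and 29.9 against 4.08 and 4.5, a log2 difference of −2.25. At all 5 the values of KO TWEAK cells lay within or near the range of the untreated lists.

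The largest increases mirrored this in 4 of 5 cases, where TWEAK-treated control cells alone were low. The region 56.5 kb from CCNG1, a cyclin gene (chr5:163378943-163381103), gave 10.6 and 12.6 in untreated control, 3.49 and 3.37 in control TWEAK, 11.3 and 7.04 in untreated KO and 9.09 and 8.95 in KO TWEAK lists, a log2 difference of 1.64 (SE 0.15, limma adjusted p = 4.46e-06). Near HAUS5, an augmin subunit gene (chr19:35604201-35606164), control cells fell from 10.2 and 11.3 untreated to 3.8 and 2.95 with TWEAK, and KO TWEAK lists held 9.13 and 8.17. In CSF1R, the macrophage colony-stimulating factor receptor gene (chr5:150064226-150067847), the same values were 14.6 and 11.3, 4.14 and 4.05, and 10.1 and 9.24. Near INHBB, an activin subunit gene (chr2:120395746-120400749), they were 16.1 and 16.2, 5.58 and 4.87, and 13.1 and 10.1. The log2 differences were 1.60, 1.53 and 1.52. ADAMTSL3, a matrix protein gene (chr15:83731742-83734954), differed in that the genotypes stood apart before treatment: control lists gave 4.15 and 3.7 untreated and 3.01 and 3.39 with TWEAK, and KO lists 9.97 and 9.09 and then 9.21 and 7.58. Its log2 difference was 1.60 with and 1.46 without TWEAK, and the change between them was 0.14 (limma adjusted p = 0.695).

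Start-site regions of the pathway genes were read in the same fit, where 8.33% of 11522 genes had a lower and 11.6% a higher start-site region. NF-κB subunits and inhibitors were lower at 7 of 15 genes, among them NFKB1, NFKB2, RELA, NFKBIA, NFKBIE and TNFAIP3, and higher at 1, whereas the count of lower genes was 10 of 15 with median centring, where 23.2% of all genes were lower, and 14 of 15 without normalisation, where 56.7% were. TNFAIP3 gave 18.8 and 16.2 in control TWEAK, 7.97 and 7.71 in KO TWEAK and 7.2 to 11 in untreated lists, a log2 difference of −0.62 (SE 0.11, limma adjusted p = 0.000846). NFKBIE gave 12.7 and 13.1 against 5.78 and 4.71, a log2 difference of −0.91. NFKB1, in contrast, was lower as deposited in KO cells before treatment, with 34.7 and 31.6 in untreated control and 15.2 and 16.1 in untreated KO lists. With TWEAK it gave 39.5 and 40.1 against 18.4 and 15.2, a log2 difference of −0.48 that was −1.25 without normalisation. Strong peaks were lower throughout the untreated KO lists, with a 95th percentile of 16.4 and 14.7 against 20.5 and 20.8 in untreated control lists. The part of this in the untreated NFKB1 values was not tested. Receptor and proximal genes were lower at 5 of 14, and here TRAF2 stood out with 21.9 and 23.9 in control TWEAK, 7.9 and 8.22 in KO TWEAK and 6.22 to 8.9 in untreated lists, a log2 difference of −0.93 (SE 0.11, limma adjusted p = 3.97e-05). TRAF3, the adaptor that restrains the non-canonical arm, gave 10.3 and 10.5 against 5.32 and 5.65, a log2 difference of −0.55.

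ICAM1 had the largest start-site decrease among the listed genes. Control TWEAK lists gave 12.2 and 12.2, KO TWEAK lists 4.32 and 3.81, untreated control 4.96 and 5.13 and untreated KO lists 4.98 and 4.05 (chr19:10269702-10273305), a log2 difference of −1.28 (SE 0.13, limma adjusted p = 1.45e-05). Among cytokines 3 of 12 were lower and 2 higher. CSF3, the G-CSF gene, gave 12.5 and 11.5 against 5.37 and 4.58, a log2 difference of −0.92, and CSF1 gave 12.9 and 11.5 against 6.97 and 5.84, a log2 difference of −0.51. CX3CL1, which encodes the membrane chemokine fractalkine, was higher, with 2.76 and 3.49 in control and 5.12 and 4.13 in KO TWEAK lists and a log2 difference of 0.64 (0.57 without normalisation). IL18 was called higher at 0.43, a difference of 0.01 without normalisation. Of the plasminogen system, PLAUR, the urokinase receptor gene, gave 21.2 and 21.2 against 10.4 and 9.89, a log2 difference of −0.46, and SERPINB2 gave 17 and 19.2 against 8.53 and 8.22, a log2 difference of −0.56. Proteases were lower at 3 of 13 and higher at 1, and adhesion genes lower at 2 of 13. No AP-1 or small MAF start-site region was called of 13, and none of 14 in the JNK pathway. With median centring 8 of the 13 AP-1 and small MAF genes were lower and 1 higher, beside 23.2 and 11.4% of all genes. Without normalisation 10 of 13 and 10 of 14 were lower, beside 56.7% of all genes. Filopodia and actin genes were lower at 1 of 14 and higher at 4 of 14, but none of the higher calls held without normalisation, where 11 of 14 were lower beside 56.7% of all genes. FN1, the fibronectin gene, gave 9.95 and 9.68 against 9.92 and 8.63 and was called higher (log2 difference 0.38) only relative to the other regions. The counts for the remaining lists were 1 lower and 1 higher of 12 in the epithelial-mesenchymal set, 2 and 2 of 16 among YAP and TEAD targets and 0 and 2 of 12 in NAD metabolism.

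NAMPT, which encodes the rate-limiting enzyme of NAD salvage, is one of the genes named by the study, and its surroundings changed at distal regions rather than at its start. Within 50 kb lay 3 control-only and 0 KO-only regions. Only chr7:106269666-106272691 had no untreated peak, at 2.65 and 2.54, while chr7:106245826-106250506, at 3.12 and 2.87, had untreated peaks in both KO lists. The region chr7:106317797-106318775, at 4.01 and 3.09, had untreated peaks in both control lists and, at 2.83, in 1 KO list. Further upstream, chr7:106357497-106359052 gave 5.62 and 5.92 in control TWEAK lists and no peak in the other MDA-MB-231 lists. The shared region 26.3 kb upstream (chr7:106312234-106315377) gave 13.8 and 16.8 in untreated control, 30 and 29.2 in control TWEAK, 16.2 and 13.2 in untreated KO and 14.1 and 12.6 in KO TWEAK lists, a log2 difference of −0.44 (SE 0.09, limma adjusted p = 0.00258). At 42.4 kb (chr7:106328327-106330945) control TWEAK lists gave 10.9 and 9.8 and KO TWEAK lists 5.96 and 4.68, a log2 difference of −0.61 (limma adjusted p = 0.00796). At 90.9 kb (chr7:106376827-106379161) they gave 6.94 and 8.42 against 3.68 and 3.12, a log2 difference of −1.0 (SE 0.16, limma adjusted p = 0.000396). The strongest region, at 56.7 kb (chr7:106342695-106349080), gave 37.4 and 39.7, 51.6 and 54.1, 34.1 and 28.1, and 31.3 and 27 in the same order of groups, with a log2 difference of 0.03 (limma adjusted p = 0.799) that became −0.51 with median centring and −0.86 without normalisation. The start-site region (chr7:106277421-106287712) gave 24 and 20.1 in control and 16.3 and 18.6 in KO TWEAK lists, a log2 difference of 0.38 (limma adjusted p = 0.0387) that was 0.02 with median centring and −0.34 without normalisation, so its direction turned with the scaling.

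**Figure D5:**
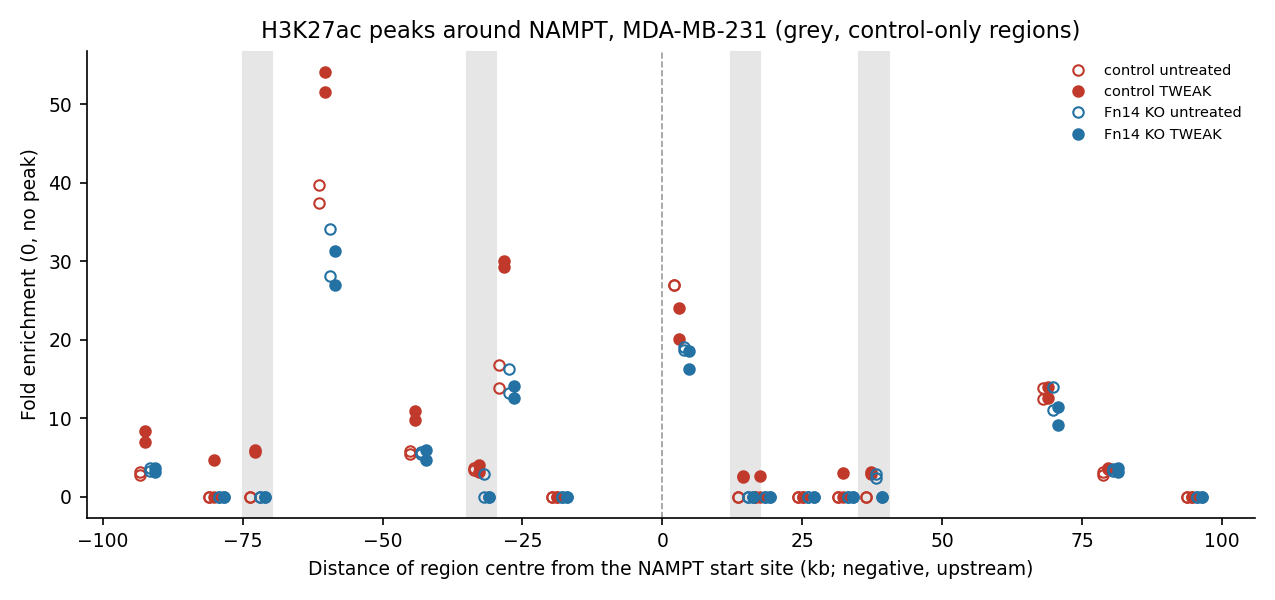
Fold enrichment over input (linear axis) of every region within 100 kb of the NAMPT start site by the distance of its centre in kb, negative being upstream, with points per MDA-MB-231 list (slightly offset by group) and 0 for no peak. Grey bands mark control-only regions, and the filled red points of control TWEAK lists stand above the other groups at the regions 26.3, 42.4, 56.7 and 90.9 kb upstream.

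ITGAV, the integrin αV gene, had 1 control-only region within 50 kb, 34.0 kb from its start (chr2:186554293-186556023), at 3.2 and 3.22 with no untreated peak. A stronger shared region, nearer to ZC3H15 (chr2:186542048-186546888), gave 17.1 and 20.3 in untreated control, 39.9 and 39.4 in control TWEAK, 18.1 and 18.8 in untreated KO and 16.6 and 16.5 in KO TWEAK lists. Its log2 difference was −0.48 (SE 0.10, limma adjusted p = 0.004) with TWEAK and 0.40 without. The ITGAV start-site region gave 10.6 and 12 in control and 9.49 and 8.08 in KO TWEAK lists and was not called (log2 difference 0.11, limma adjusted p = 0.476). KIF18A, a mitotic kinesin gene, had no control-only or KO-only region within 50 kb. Its start-site region (chr11:28104512-28111460) gave 11.1 and 11.2 in control and 12 and 11.3 in KO TWEAK lists, a log2 difference of 0.59 (SE 0.11, limma adjusted p = 0.00102) that was 0.06 without normalisation. A region in the gene body (chr11:28085231-28092102) gave 4.86 and 4.82 against 3.55 and 3.36, a log2 difference of −0.40 (limma adjusted p = 0.0493).

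Control-only and KO-only regions were uneven over the chromosomes. Chromosome 4 had 10.1% control-only and 1.57% KO-only regions with TWEAK, and 3.85 and 1.11% untreated. On chromosome X the shares were 8.53 and 2.55% with TWEAK and 4.57 and 1.75% untreated. Chromosome 5 had 5.40 and 4.50%, and 0.707 and 3.53% untreated. The lean of chromosomes 4, 5 and X was thus present before treatment. The median log2 difference of shared regions was −0.13 with TWEAK and −0.11 untreated on chromosome 4, and 0.14 and 0.16 on chromosome 5. Whether the genotypes differ in copy number there was not tested. PALLD, which encodes the actin-bundling protein palladin and lies on chromosome 4, and PDE4DIP had the most control-only regions within 50 kb of a start site, 6 each. These were 6 of 36 regions in reach of PALLD and 6 of 19 in reach of PDE4DIP, beside 6.21% over all regions. None of the 6 of PALLD lacked an untreated peak. In the window chr20:55000001-60000000, 21.0% of 100 regions were KO-only with TWEAK and 9.0% untreated. Without chromosomes 4, 5, 10, 20 and X, a choice made after seeing the data, 2537 control-only and 1403 KO-only regions remained, and their κB shares were 15.8 and 2.14%.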

How the data were processed

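H3K27ac ChIP-seq was analysed from the 16 peak lists deposited for the series, of which the 4 lists of TWEAK-treated MDA-MB-231 cells define the regions described. Per the methods of the study, reads were trimmed with Trimmomatic, mapped to hg38 with Bowtie2, peaks were called per sample with MACS2 with input subtracted, and blacklisted regions were removed; versions are not given in the sources used here. The deposited broad peak lists hold, per peak, a score, the fold enrichment over input (a ratio), and the −log10 p and −log10 q values of MACS2. They hold no read counts and nothing below a −log10 q of 1.0, so a missing peak has no value, and a weaker library loses peaks.

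Peaks of all lists were merged at 1 bp and kept where at least 2 lists had one. Control-only and KO-only regions were counted without a test, because 2 lists against 2 cannot give an exact permutation p below 0.333. A region took the highest fold enrichment of its peaks in a list. At regions with a peak in all 8 MDA-MB-231 lists, log2 fold enrichment was quantile normalised and fitted with limma 3.58.1 in R 4.3.3 (4 groups, trend, Benjamini-Hochberg adjustment over all regions, threshold 0.05), which was tested on simulated data. P-values of this fit set a difference against the spread between the 2 lists within each group, pooled over the 4 groups and moderated across regions. Motifs were searched on both strands of the reference in 300 bp windows, and start sites came from GENCODE. Python 3.11.15 with numpy 2.4.6, pandas 2.3.3 and scipy 1.17.1 was used. Intervals cover counting error only.

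Named were TNFRSF12A, NAMPT, ITGAV and KIF18A, the 8 strongest regions of each kind and the 5 strongest of the classes no untreated peak and already differing, the 5 largest groups of regions, the 5 largest shared differences in each direction, and up to 6 genes per list. Genes of the lists at start sites, PALLD, PDE4DIP and the gene members of lists with few calls were named after their values were seen. The members and lists were chosen with earlier results of these data known. Alternatives were a −log10 q of at least 5, a 50% cover, trimmed lists, other scalings, a 1000 bp window, a 10 kb gene distance, a replicate block and leaving out each list.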

Additional observations from a re-analysis of the deposited data

Results flagged for a closer look

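At shared regions of MDA-MB-231 the genotype difference with TWEAK was tested against that without treatment in the same limma fit. At an adjusted p under 0.05 it was more negative with TWEAK at 2780 regions (9.30%) and more positive at 2353 (7.87%) of 29889. Since both contrasts enter this test, the regions named for a large TWEAK difference were bound to lean the same way. Without control TWEAK replicate 2 the counts were 1442 and 999, and without normalisation the second was 1100.

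The change in the KO minus control log2 difference was −2.56 at GPR107, −3.03 near SELPLG, −2.47 near ZC3H7B, −2.75 in ARNT2 and −2.26 near LAPTM4A. At SELPLG, ARNT2 and LAPTM4A the untreated difference was 0.23, 0.38 and 0.01, none of them called (limma adjusted p = 0.332, 0.0866 and 0.981). In the other direction the change was 1.73 near CCNG1, 1.61 near HAUS5, 1.87 in CSF1R and 1.39 near INHBB. Around NAMPT it was −0.76 at both regions 26.3 and 42.4 kb upstream and −1.24 at the one 90.9 kb upstream, with limma adjusted p = 0.00117, 0.0227 and 0.00186. Near ZC3H15 and ITGAV it was −0.88, and at the KIF18A start site 0.66. At the NAMPT region 26.3 kb upstream and at the ZC3H15 region the untreated difference was itself called in the opposite direction, at 0.32 and 0.40 (limma adjusted p = 0.0271 and 0.019).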

How the results depend on the processing

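The cause of each change below was not tested. Log2 differences of named shared regions changed sign at 3 NAMPT regions given below and, from 0.23 or less in size, near PAQR4, PKMYT1, IL32, ITGAV and FAM171B (0.08, and −0.2 to 0.37 with each list left out) and at a further NAMPT region. Keeping only peaks with a −log10 q of at least 5 left 419 KO-only regions, and changed the share of control-only regions with no untreated peak to 41.0%, of KO-only regions with all 4 untreated peaks to 57.3%, the start-site shares from 7.99 and 9.36% to 15.4 and 11.5%, which turned their order, the κB share of control-only regions to 10.6% and the listed genes with a KO-only region to 4. Requiring a peak to cover 50% of a region gave 47.5, 37.3, 14.9 and 15% for the first 4 of these shares. Lists trimmed to equal length gave 59.7% for the first. Windows of 1000 bp gave κB shares of 29.8 and 8.52% and AP-1 shares of 57.5 and 58.0%. Within 10 kb, 25 listed genes had a control-only and 6 a KO-only region, against 67 and 18 within 50 kb. At shared regions, median centring gave 6190 lower and 5498 higher calls, and no normalisation 13569 and 944, with 1100 for a more positive change with TWEAK. Start-site calls changed their balance from 960 lower and 1334 higher genes to 2677 and 1314 with centring and 6528 and 129 without normalisation, those of filopodia genes from 1 and 4 to 4 and 2 and 11 and 0, and those of NAD genes from 0 and 2 to 3 and 2 and 6 and 0. The log2 differences of the NAMPT regions that reversed were −0.38 (66.0 kb downstream) and −0.34 (start site) without normalisation, and −0.51 with centring and −0.86 without normalisation at the region 56.7 kb upstream.

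Leaving out each list in turn gave 4305 to 4828 control-only and 2371 to 3165 KO-only regions, since fewer lists then have to agree. The untreated shares ranged from 38.0 to 60.3% and from 27.5 to 52.6%, and the differences in the lists labelled Hs578T from −44.0 to −40.5 and from 30.1 to 34.3 points. Listed genes ranged from 76 to 81 and from 24 to 44, start-site shares from 8.29 to 9.54% and from 9.29 to 11.0%. Lower calls ranged from 1742 to 3943 and higher calls from 1565 to 3913, and changes with TWEAK from 1442 to 2682 and from 999 to 2369. With replicate number as a block, 3671 regions were lower and 3633 higher and 2754 and 2332 changed with TWEAK, and it ended 1 named call, that of the KIF18A gene body. Lists with the same number did not deviate together (correlations of −0.083 to 0.080), so the numbers do not pair the lists.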

Other observations

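A few genes with several differing regions belong to no list used above, and their values are given without a test. Over all regions 6.21% were control-only and 3.21% KO-only, and the part of the number of regions in reach in these counts was not tested. Besides PALLD and PDE4DIP, ABI3BP had 5 control-only regions of 11 within 50 kb of a start site, of which 3 had no untreated peak and 2 already differed. DGAT2, which encodes the last enzyme of triglyceride synthesis, had 4 of 8, all without an untreated peak. G0S2, an inhibitor of triglyceride lipase, had 4 of 7 and LAMB3, a laminin chain gene, 4 of 9, each with 3 that had none. A region within 50 kb of several start sites counts for each gene, and whether G0S2 and LAMB3 share theirs was not checked. FRMD4A had 4 of 44, LHFPL2 4 of 18 and NRCAM 4 of 11, each with 3 without an untreated peak. On the KO side COL18A1, which encodes the collagen that yields endostatin, had 5 KO-only regions of 14 in reach and ZBTB7C 5 of 13. Neither had a control-only region, and 2 of each had a peak in all 4 untreated lists. FOXP1, a forkhead factor gene, had 4 KO-only regions of 34 in reach and LPCAT1, a phospholipid acyltransferase gene, 4 of 11, with no control-only region at either.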
